A study of Mus musculus with 20 samples.

Results

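The Hippo pathway is a kinase cascade that restrains tissue growth. The kinases MST1 and MST2, held by the adaptor SAV1 and recruited by merlin and the WWC scaffolds, phosphorylate and activate LATS1 and LATS2, which in turn phosphorylate the coactivators YAP and TAZ and keep them out of the nucleus. Coactivators that stay unphosphorylated bind the TEAD transcription factors and switch on genes of growth and adhesion, and loss of merlin or of LATS2 is a known lesion of human malignant mesothelioma (MM), the tumor of the mesothelial lining. The expression of 10 core genes of this cascade was examined in mouse MM cells grown as 2D monolayers or as 3D organoids: Nf2, Wwc1, Wwc2, Stk3, Stk4, Sav1, Lats1, Lats2, Wwtr1 and Tead1. They were chosen by gene name, as upstream and core genes, from the 21884 genes in the deposited table, with earlier results of these data known. Comparisons of these genes, and of the further lists below, with all genes are therefore not independent of the data. Target genes were left out, except that Lats2 is both a core gene and a YAP/TAZ target.

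RNA-seq libraries of 7 MM lines were compared, 1 library per line and culture, so that 14 libraries formed 7 pairs. All lines came from male C57/BL6 mice injected intraperitoneally with a mineral or synthetic fiber. For m5, m12, m28, m54 and m60 the host was p53+/- and the fiber crocidolite asbestos; for m107 the host was p53+/- and the fiber carbon nanotube (NT-50); for m67 the host was wild type (WT) and the fiber crocidolite. For m67 the paper lists the histology as not determined, with ascites noted, whereas the other lines have a tumor subtype. Because WT and carbon nanotube were each represented by 1 line, neither genotype nor fiber could be compared. The 2D cells grew on plastic in serum-containing medium, whereas the organoids grew in Matrigel in a defined medium with EGF, R-spondin1, Noggin and the ROCK inhibitor Y-27632. This follows the study's methods; the sample labels name the same serum-containing medium for both cultures. If the methods hold, culture geometry, matrix and medium changed together and cannot be told apart. The series also has 6 normal mesothelial samples, not analysed here.

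Libraries held between 11134018 and 53911770 reads assigned to genes, with medians of 15772888 in 2D and 16548710 in 3D, and the 4 deepest belonged to m5 and m12. Several libraries stood apart. Y-linked transcripts summed to 249 CPM (reads per 1e6 reads assigned to genes) in 2D m5 and 199.8 CPM in 3D m12 but to 0 in 3D m5 and 2D m12. They were also at 0 in 3D m28 and at 0.666 CPM in 2D m28, and between 11.2 and 186 CPM in the other lines. The labels or the pairing of m5 and m12 may therefore be wrong, and every paired value printed for them is for the libraries so labelled. The mesothelial transcription factor Wt1 ranged from 53.6 to 957 CPM in every library except 3D m12, where it was 0.0371 CPM. The paper's histology scored the m12 tumor negative for WT1 and for mesothelin, the product of the mesothelial gene Msln. In 3D m12, however, Msln was at 647 CPM, the highest of any library. In that library the 12 fibroblast and smooth muscle markers summed to 1.48 CPM and the 12 gut and duct epithelial markers to 4802 CPM, against at most 1133 CPM elsewhere. Calb2, another defining mesothelial gene, was at or near 0 in all libraries. The 13 macrophage and leukocyte markers summed to 2238 CPM in 3D m67 and to at most 204 CPM in the others. Results are also given without m5 and m12. As these are bulk samples, fewer cells of a type and less RNA per cell cannot be told apart.

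Levels are given in CPM, and differences as the mean over lines of log2(CPM + 1) in 3D minus that in 2D, tested with limma with the line as a block and Benjamini-Hochberg adjustment over the 11677 genes that reached 1 CPM in at least 7 libraries. All 10 genes passed this filter. The lowest single value was Wwc1 in 3D m28, at 49 reads or 3.77 CPM, and each of the other 9 genes was at 15.5 CPM or more throughout.

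Of the 10 genes, 3 fell in the organoids and none rose at an adjusted p of 0.05: the scaffold Wwc2, the kinase Lats2 and the transcription factor Tead1. Across all tested genes, 3.28% passed in either direction, 1.18% as lower and 2.1% as higher in 3D. Without m5 and m12, Wwc2 and Lats2 passed (2 of 10, against 2.98% of all tested genes). On the recovered reads, edgeR passed Wwc2, Lats2 and Tead1 (0.942% of all genes) and DESeq2 those and 2 more (16.2%), 1 of them higher. At an unadjusted p of 0.05, limma passed 5 of the 10, Sav1 being the one that was higher, against 25.2% of all tested genes. The median difference over the 10 genes was −0.30, against 0.06 over all tested genes, and the estimate was negative for 9 of the 10, against 43.9% of all genes. Within single lines, between 6 and 9 of the 10 genes were lower in 3D, with median differences of −0.66 in m28 to −0.34 in m67. The same medians over all tested genes lay between −0.01 and 0.16. The share of all tested genes lower within each line was not computed, so these counts alone do not set the 10 genes apart.

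**Figure D1:**
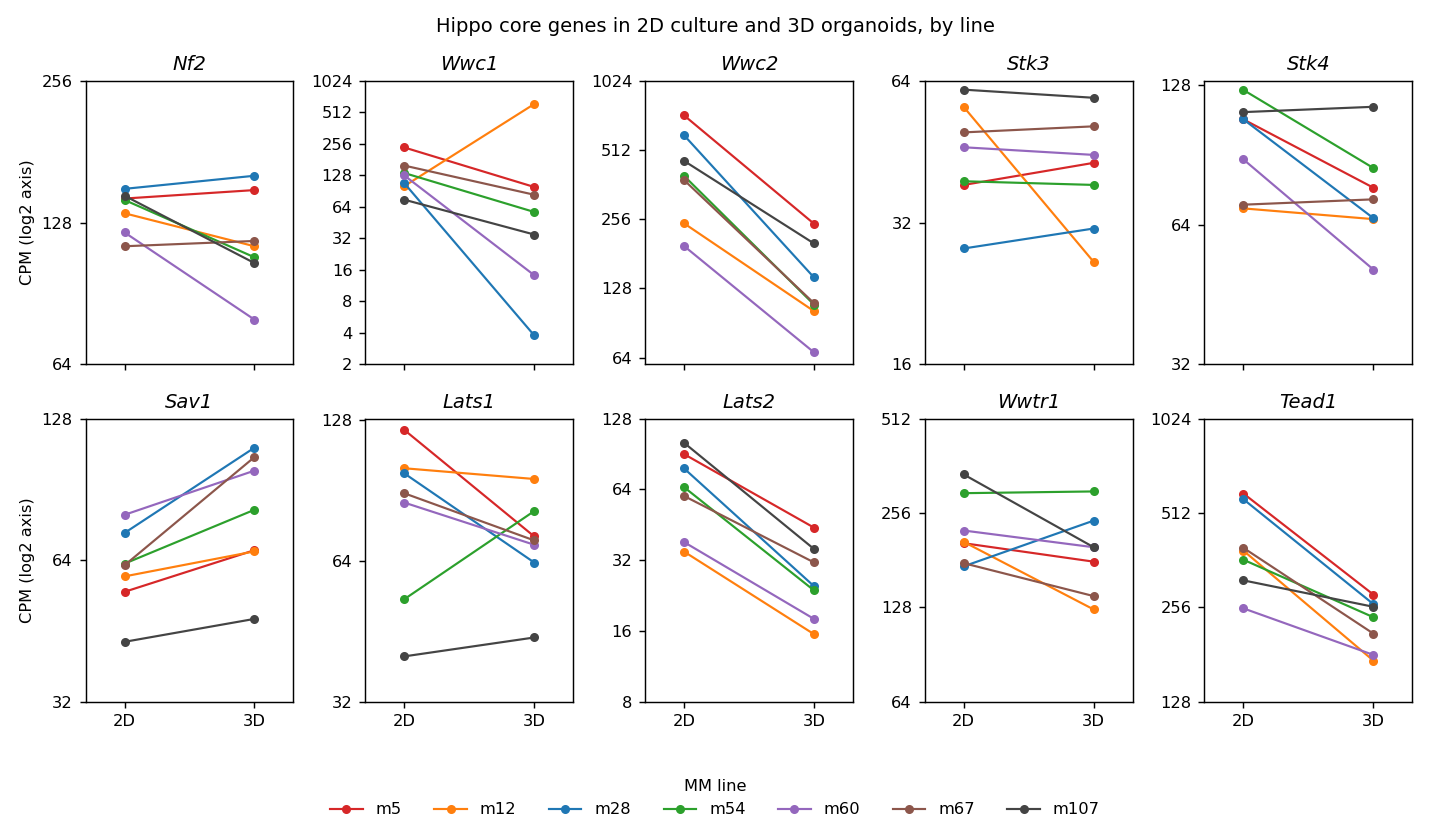
CPM (log2 axis) of the 10 Hippo core genes in 2D and 3D culture; each line joins the 2 libraries of 1 MM line, 1 library per point. All 7 lines descend for Wwc2, Lats2 and Tead1 and ascend for Sav1, while Wwc1 rises in m12 alone, from 101 to 617 CPM.

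Upstream of the kinases, Nf2 encodes merlin, the membrane-linked tumor suppressor that brings LATS kinases to the membrane (GRCm39 chromosome 11, 4715841-4799536, minus strand). Nf2 ranged over 114, 143 and 151 CPM in 2D (lowest, median, highest) and 79.6, 114 and 161 CPM in 3D. It was the steadiest of the genes among the 2D lines, with a highest-to-lowest ratio of 1.33, and the cultures overlapped widely. The mean difference was −0.22 (95% confidence interval −0.50 to 0.07, adjusted p = 0.309), lower in 4 of 7 lines, so no difference was detected, and the interval reaches from a ratio of 0.706 to 1.05.

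Wwc2 encodes a scaffold of the KIBRA family that binds LATS kinases and promotes their activation (ENSMUSG00000031563, chromosome 8, 48276994-48443959, minus strand). It is shown together with Tead1 by the 200 bases before the annotated canonical start (GRCm39, 5′ to 3′ on the gene's strand), because these were the genes among the 3 that fell whose promoters held GGAATG, the core motif recognised by TEAD factors; capitals mark GGAATG or its other-strand form CATTCC.
Wwc2, chr8:48443608-48443807, minus strand: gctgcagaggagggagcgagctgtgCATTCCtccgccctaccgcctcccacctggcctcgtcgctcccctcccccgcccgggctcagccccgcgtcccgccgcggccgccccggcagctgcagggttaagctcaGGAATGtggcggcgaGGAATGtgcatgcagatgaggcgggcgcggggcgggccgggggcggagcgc
Tead1, chr7:112278322-112278521, plus strand: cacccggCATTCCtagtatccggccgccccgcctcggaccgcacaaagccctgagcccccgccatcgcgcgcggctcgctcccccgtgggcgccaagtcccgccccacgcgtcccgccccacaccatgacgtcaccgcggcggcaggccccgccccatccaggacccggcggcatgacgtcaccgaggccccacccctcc
The Wwc2 matches began 175, 66 and 51 bases before the start, and the Tead1 match 193 bases before it, with further Tead1 matches at positions +28 and +40. In windows of 300 bases (250 before to 50 after the start), searched on both strands, 4 of the 10 genes held a match (Wwc1, Wwc2, Wwtr1 and Tead1), as did 14% of the 21686 genes of the table with a window. The Lats2 window held none; other annotated starts of Wwc2 and Lats2 were not searched, and a match is a description of the letters alone.

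Wwc2 ranged over 196, 396 and 726 CPM in 2D and 67.5, 110.5 and 245 CPM in 3D. Line m5 was highest and m60 lowest in both cultures, and the ranges met only because 2D m60 and 3D m5 and m107 lay close together (196, 245 and 201 CPM). The mean fell from 428 ± 186 to 139.7 ± 62.4 CPM (SD, n = 7), a log2 difference of −1.60 (SE 0.13, adjusted p = 0.00331 by limma), or 3.04-fold. Each line fell, from −2.05 in m28 to −1.19 in m107. Lines accounted for 33.7% of its variance, culture for 64.3% and the remainder for 2.07%. Over all tested genes the medians were 59% for line and 8.22% for culture. With no effect of either, this design would on average give 46.2% to line and 7.69% to culture. Without m5 and m12 the difference was −1.68 (adjusted p = 0.00976).

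The paralog Wwc1 encodes KIBRA, which acts with merlin (chromosome 11, 35729216-35871639, minus strand). Its 2D levels were 75.0, 128 and 237 CPM, and its 3D levels 3.77, 57.2 and 617 CPM, a spread in 3D of 164-fold. It was lower in 6 of 7 lines, with differences of −4.51 in m28 (108 to 3.77 CPM) and −3.09 in m60 (128 to 14.2 CPM), and higher in m12 by 2.60. The mean difference of −1.35 (95% interval −2.94 to 0.24) did not pass (adjusted p = 0.259). This outcome changed with the lines fitted. Without m12 the difference was −2.01 (adjusted p = 0.0466 by limma), in a fit where 771 of all genes passed, against 383 with all lines. Without both m5 and m12 the difference was −2.16 (adjusted p = 0.0759 by limma). The 3D m12 library, highest for Wwc1, is the one with Wt1 near 0 and a gut and duct epithelial sum of 4802 CPM; the part of this in the value was not tested.

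Neither MST kinase passed the test. Stk3, which encodes MST2 (chromosome 15, 34874700-35179067, minus strand), was at 28.2, 46.3 and 61.4 CPM in 2D and 26.4, 42.9 and 59.0 CPM in 3D. In every line but m12 its cultures differed by at most 0.15 on the log2 scale, whereas in m12 it went from 56.4 to 26.4 CPM. The mean difference was −0.12 (95% interval −0.51 to 0.26, adjusted p = 0.672), and 0.03 without m12. Stk4, which encodes MST1 (chromosome 2, 163912242-163997444, plus strand), was at 69.4, 108 and 125 CPM in 2D and 51.2, 72.6 and 115 CPM in 3D. It was lower in 5 of 7 lines and all but level in m67 and m107, with a difference of −0.36 (−0.68 to −0.03, adjusted p = 0.166).

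Sav1, whose product holds MST and LATS kinases together (chromosome 12, 70003735-70033975, minus strand), was the only gene of the 10 with a positive estimate. It was at 42.9, 62.4 and 79.9 CPM in 2D and 48.0, 81.9 and 111 CPM in 3D. It was higher in 3D in 7 of 7 lines, as were 7.05% of all tested genes, by 0.16 in m107 up to 0.75 in m67, while the ranges overlapped because lines differed more than cultures. The difference of 0.38 (SE 0.12, 95% interval 0.12 to 0.64) did not pass (adjusted p = 0.0944). Sav1 and Stk4 were the 2 further genes passed by DESeq2, at 0.31 (adjusted p = 0.0378) and −0.44 (adjusted p = 0.0444).

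Among the LATS kinases, Lats2 (ENSMUSG00000021959, chromosome 14, 57926960-57995845, minus strand) fell whereas its paralog Lats1 (chromosome 10, 7556736-7592226, plus strand) did not pass. Lats2 ranged over 34.8, 65.4 and 101 CPM in 2D and 15.5, 24.8 and 44.0 CPM in 3D. Lines m5 and m107 were the highest and m12 and m60 the lowest in both cultures, so that the ranges overlapped although every line was lower in 3D. It fell 2.35-fold, to a mean of 27.6 ± 10.1 CPM in 3D (SD, n = 7), a log2 difference of −1.23 (SE 0.13, adjusted p = 0.00911 by limma). The line differences ran from −1.63 in m28 to −0.92 in m67. Culture accounted for 59.6% of its variance and lines for 38.0%. The difference was −1.30 without m5 and m12 (adjusted p = 0.0158), and with the line block left out the adjusted p was 0.0503.

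Lats1 was at 40.0, 89.3 and 122 CPM in 2D and 43.9, 70.8 and 95.8 CPM in 3D. Line m107 was lowest in both cultures, and the directions differed among lines, from −0.74 in m5 to 0.62 in m54. The mean difference was −0.19 (95% interval −0.58 to 0.21, adjusted p = 0.522). Exons of Lats1 overlap those of Pcmt1 on the opposite strand, itself at 42.3 to 102 CPM, and whether the counting used strand is not given in the sources used here. The gene that shares exons with Lats2 on its own strand, Gm49361, never exceeded 0.0489 CPM.

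The difference between paralogs was tested directly. Of 4 ratios compared, the log2 ratio of Lats2 to Lats1 went from −0.33 ± 0.93 in 2D to −1.38 ± 0.76 in 3D and was lower in 7 of 7 lines, by 0.28 in m5 up to 2.04 in m54. The exact sign-flip permutation test over lines gave p = 0.0156, two-sided, the smallest that 7 lines allow, and 0.0625 after adjustment over the 4 ratios, past the threshold only unadjusted. A single ratio at that smallest p could not pass after this adjustment unless other ratios came near it, so the adjusted value cannot decide for this pair. The mean shifts of Stk3 to Stk4 (0.23 ± 0.65), Wwc2 to Wwc1 (−0.25 ± 2.01) and Wwtr1 to Yap1 (−0.58 ± 1.69) were smaller than their SDs over lines, with exact p of 0.359, 0.750 and 0.594. The Wwc2 to Wwc1 shift turned to 0.35 without m12, and the Wwtr1 to Yap1 shift to 0.02 without m5.

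At the end of the cascade, Wwtr1 encodes TAZ (chromosome 3, 57363067-57483331, minus strand). It was at 173, 207 and 339.6 CPM in 2D and 126, 199 and 299.8 CPM in 3D. The cultures overlapped almost entirely, and m28, the lowest line in 2D, was among the highest in 3D. The mean difference was −0.24 (95% interval −0.61 to 0.13, adjusted p = 0.374), lower in 5 of 7 lines. Yap1, which encodes YAP and is not 1 of the 10, was at 191 to 351 CPM in 2D and 135 to 256 CPM in 3D apart from 3D m5, where it reached 3989 CPM. Its difference of 0.34 (adjusted p = 0.713) became −0.27 without m5.

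Tead1 encodes a TEAD factor, the DNA-binding partner of both coactivators (ENSMUSG00000055320, chromosome 7, 112278522-112506014, plus strand; its upstream sequence is printed with that of Wwc2). It ranged over 254, 388 and 590.3 CPM in 2D and 173, 238 and 281 CPM in 3D. Lines m5 and m28 were highest in both cultures, and the lines lay closer together in 3D, where the highest-to-lowest ratio was 1.62 against 2.32 in 2D. The mean fell from 409.8 ± 125 to 229 ± 41.8 CPM (SD, n = 7), a log2 difference of −0.80 (SE 0.14, adjusted p = 0.0312 by limma), or 1.74-fold. It was lower in 7 of 7 lines, from −1.16 in m12 to −0.27 in m107. This call was the least stable of the 3: the adjusted p was 0.0725 without m5 and m12 (difference −0.68), and between 0.0576 and 0.0930 when m5, m28, m54, m60 or m67 was left out.

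**Figure D2:**
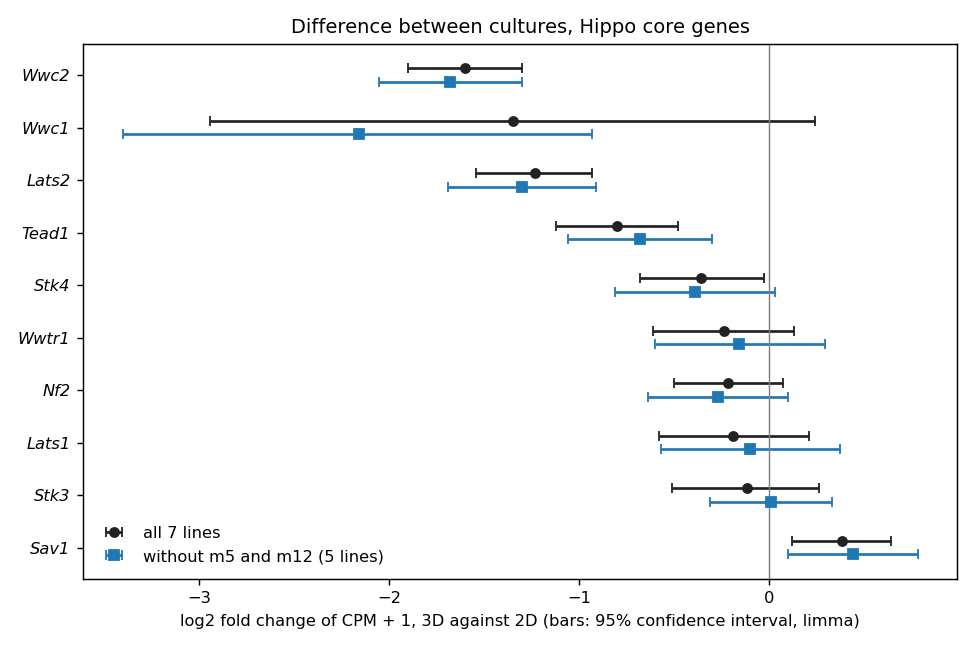
Log2 difference between 3D and 2D (x axis, CPM + 1) of the 10 genes with 95% confidence intervals from limma, for all 7 lines (circles) and for the 5 lines without m5 and m12 (squares). The intervals of Wwc2, Lats2 and Tead1 lie below 0 in both fits, and that of Wwc1 moves from −2.94 to 0.24 with all lines to below 0 without the pair.

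Wwc2, Lats2 and Tead1 were thus the genes lower in 3D in 7 of 7 lines, as were 3.9% of all tested genes. For each of the 10 genes the 2D and 3D ranges overlapped; they were separate for 1% of all tested genes. Beside these falls, the fibroblast and smooth muscle markers summed to 6529 to 17289.9 CPM in 2D and 1.48 to 8371 CPM in 3D. Of 11 tested, 2 fell, the contractile genes Acta2 and Tagln, the latter from 125 to 1294 CPM in 2D to 0.185 to 18.6 CPM in 3D. Other markers of this list went the opposite way: Pdgfra was higher in 3D in 6 of 7 lines, all but m12, and Pdgfrb in 5. By edgeR 1 of this list passed and by DESeq2 3, all as lower. Without m12, 3 fell by limma (Acta2, Tagln and Col1a1) and Pdgfra rose (2.24, adjusted p = 0.0436). In that setting 771 of all 11677 tested genes passed, against 383 with all lines. Mesothelial markers summed to 645 to 11643 CPM in 2D and 646 to 7740.0 CPM in 3D, the 3D maximum being m12 with Krt8 at 2576, Krt19 at 2493 and Krt18 at 2023 CPM. Their median difference was −1.20, and Upk3b, Upk1b, Pdpn and Bnc1 were lower in 3D in 7 of 7 lines. Krt19, in contrast, was higher in 3D in 6 of 7 lines, and Krt8 and Krt18 in 4 of 7. Of the 11 tested mesothelial markers, none passed by limma or edgeR (3 at an unadjusted p of 0.05, 1 by DESeq2). None of 3 tested macrophage and leukocyte markers passed by limma or edgeR (1 at an unadjusted p of 0.05, 1 by DESeq2), and none of 4 tested gut and duct epithelial markers by any of these (0 at an unadjusted p of 0.05). Without m12, Upk1b (−2.42, adjusted p = 0.0330) and Bnc1 (−0.94, adjusted p = 0.0459) fell and Cd14 rose (1.26, adjusted p = 0.0284). The part of these cells in the falls was not tested.

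Across the 14 libraries the 3 genes that fell also followed one another. Of all tested genes, the pair most like Wwc2 in log2(CPM + 1) was Lats2 (Pearson r = 0.950) and Tead1 (r = 0.924), followed by Kctd5 (r = 0.902). After Wwc2, the genes most like Lats2 were Arhgap29 (r = 0.917) and Tpm1 (r = 0.915), and those most like Tead1 were Zyx (r = 0.916) and Ap2a2 (r = 0.902); Tpm1 encodes a tropomyosin of actin filaments and Zyx the focal adhesion protein zyxin. These values are descriptions over libraries that share the culture difference, which alone makes genes with a difference alike. Within a culture, over 7 lines, Wwc2 and Lats2 were at r = 0.894 in 2D and 0.845 in 3D, Wwc2 and Tead1 at 0.803 and 0.855, and Lats2 and Tead1 at 0.455 and 0.836. The other 7 genes had none of the 10 among the 3 genes most like them.

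**Figure D3:**
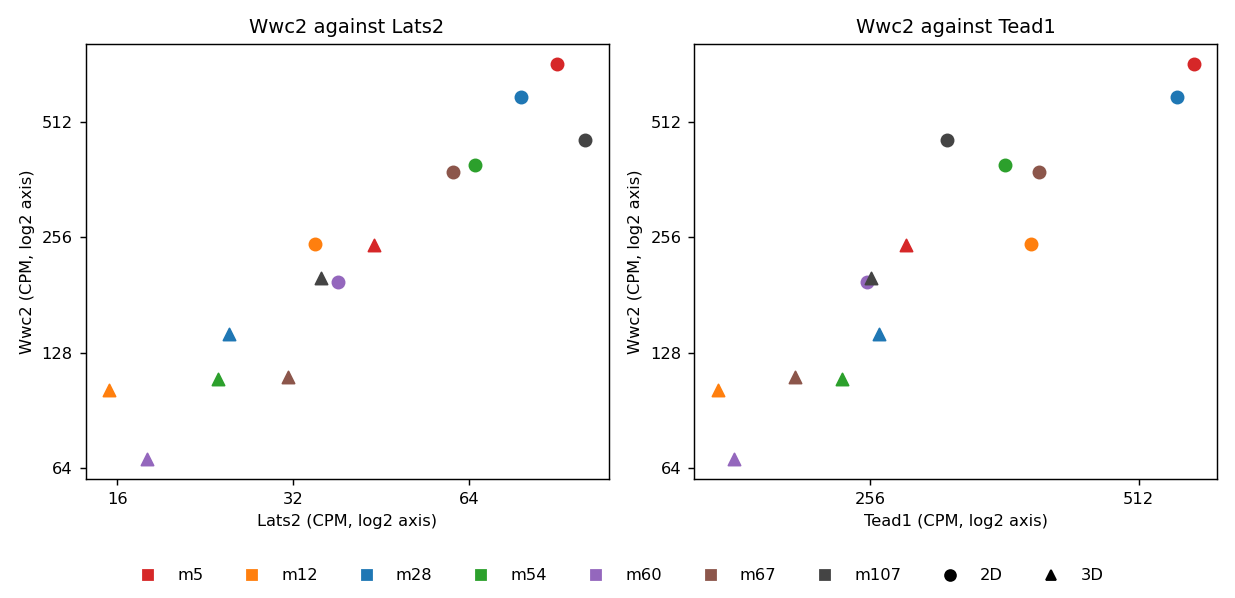
Wwc2 CPM against Lats2 CPM (left) and Tead1 CPM (right), all on log2 axes, in 14 libraries; colors mark the 7 lines, circles 2D and triangles 3D. The points rise together (r = 0.950 and 0.924), with 2D libraries toward the upper right and 3D m12 and m60 at the lower left.

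Lines kept their order between cultures for some genes and not for others. The correlation of the 2D with the 3D level over the 7 lines was 0.892 for Sav1, 0.886 for Wwc2 and 0.884 for Lats2, 0.609 for Tead1, and 0.161 for Wwc1. Line m107 was lowest for Lats1 and Sav1 and highest for Stk3 in both cultures. The libraries labelled m5 were highest for Wwc2 and Tead1 in both. These correlations and orders include m5 and m12, whose pairing is in doubt, and were not computed without them. The Wwc1 value includes 3D m12 at 617 CPM.

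Per kilobase of annotated exon, Tead1 was the most abundant of the 10 in 2D, at 30.2 CPM per kb, followed by Wwc2 (25.3), Wwtr1 (19.6), Wwc1 (16.5), Nf2 (12.7) and Stk4 (12.6). The levels of Sav1 (7.33), Lats1 (6.69) and Lats2 (6.39) were within 1 SD of each other, and Stk3 was lowest at 2.91 CPM per kb. In 3D Tead1 (16.9) and Wwtr1 (16.7) were level and Wwc2 stood at 8.25. The Wwc1 mean of 15.9 CPM per kb rested on 3D m12: its median was 7.02, and its mean without that library 5.99 ± 4.67 (SD, 6 lines). At the low end, Lats2 (2.63) was as low as Stk3 (2.68) and below Lats1 (5.66). Of the summed level of the 4 TEAD genes per kb, Tead1 made up 61.3 ± 6.63% in 2D and 51.6 ± 15.4% in 3D and was lower in 5 of 7 lines, while Tead2 made up 15.6 ± 10.4% and 23.9 ± 15.1%.

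Of a wider list of 49 further pathway genes, 46 were tested, 1 rose and 1 fell, and the median difference was 0.02. At an unadjusted p of 0.05, 11 of the 46 passed, a share near the 25.2% of all tested genes, and the 2 calls lie near the 3.28% of all genes, so neither count sets the list apart. Mink1, a MAP4K-family kinase that can phosphorylate LATS in parallel to MST, was at 50.2, 83.5 and 94.7 CPM in 2D and 101, 179 and 219.6 CPM in 3D. Its cultures did not overlap, and the difference was 1.08 (SE 0.16, adjusted p = 0.0212 by limma), higher in 7 of 7 lines, least in m54 (0.23). Amotl2, an angiomotin that holds YAP at junctions and is itself a YAP target, was at 334, 407 and 1012 CPM in 2D and 32.2, 173 and 379.7 CPM in 3D. It was lower in 7 of 7 lines, most in m60, with a difference of −1.75 (SE 0.26, adjusted p = 0.0220). Neither call held in every setting: the adjusted p of Mink1 was 0.0511 to 0.0752 without m5, m28, m60 or m67, and that of Amotl2 0.0505 to 0.0752 without m5, m28, m54 or m67.

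By role, none of 2 MOB1 adaptors, 5 tested RASSF proteins, 9 STRIPAK subunits (the phosphatase complex that opposes MST), 3 FERM or PTPN14 adaptors, 3 LIM proteins, 5 polarity proteins, 2 tested atypical cadherins or 5 genes of coactivators, TEAD factors and a TEAD corepressor passed, while 1 of 9 other LATS-activating kinases and 1 of 3 angiomotins did. Among the 3 genes of the list with the smallest p in each direction, those that did not pass were Map4k1 (difference 0.95, adjusted p = 0.0597), Slmap of STRIPAK (0.39, adjusted p = 0.124), Dchs2 (−1.10, adjusted p = 0.0770) and Rassf1 (−0.60, adjusted p = 0.0855).

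**Figure D4:**
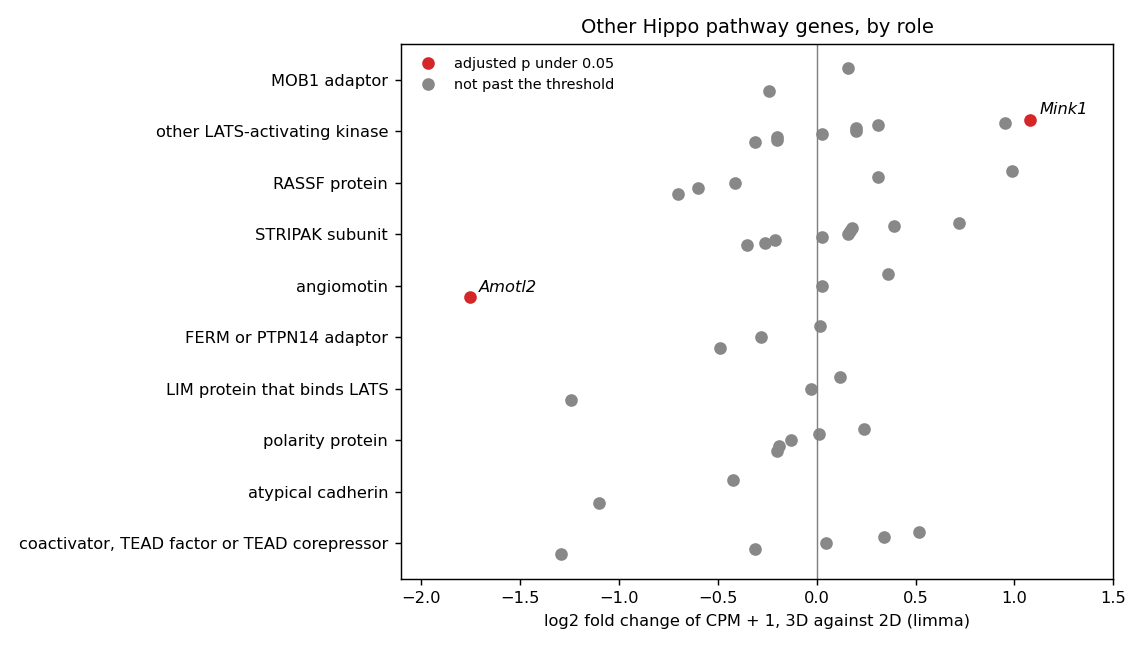
Log2 difference between 3D and 2D (x axis, CPM + 1, limma) of the 46 tested genes of the wider pathway list, 1 point per gene, by role; red points passed an adjusted p of 0.05. Mink1 at 1.08 and Amotl2 at −1.75 are the genes that passed, and the median lies at 0.02.

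For the output of the cascade, 5 of 22 YAP/TAZ target genes fell by limma (median difference −1.10), and none rose by limma, edgeR or DESeq2. Lats2, itself a target, was left out of the list. Over all tested genes limma passed 1.18% as lower and 2.1% as higher. The 5 were the matricellular genes Ccn1 (−2.47) and Ccn2 (−3.62), Amotl2 (−1.75), the transmembrane gene Crim1 (−1.46) and the stress gene Gadd45b (−1.45). Ccn1, Amotl2, Crim1 and Gadd45b were lower in 7 of 7 lines, and Ccn2 in 6, with m12 higher by 1.12. This count went to 0 when m5, m28, m54 or m67 was left out, where 60, 25, 22 and 29 of all 11677 tested genes passed. In these settings the median difference of the targets was −1.17 to −1.05. The count was 2 without m60 (77 of all genes), 3 without m107 (578), 7 without m12 (771) and 7 without m5 and m12 (348). By edgeR 1 passed (0.942% of all genes) and by DESeq2 12 (16.2%).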

How the data were processed

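RNA of mouse MM cells was sequenced from directional libraries. Per the labels and methods, the authors used FastQC 0.10.0 for read quality, Trim Galore 0.6.4 for trimming, STAR 2.7.9a for alignment to GRCm39 and HTSeq 0.12.4 for counts per gene; the strand setting is not given in the sources used here. The deposited values are CPM of protein-coding genes, relative to the library's reads in those genes, beside p-values and q-values of the authors' own comparison of 3D with 2D, which were not used. All values came out as whole reads (100.0%, tolerance 0.001 reads), so depth per library was recovered; 3 reads, the limit a count of 0 allows, corresponded to 0.0556 to 0.269 CPM (counting error only).

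Differences were fitted with limma 3.58.1 in R 4.3.3 on log2(CPM + 1), which understates changes of low genes, keeping genes that reached 1 CPM in 7 or more of the 14 libraries, with line as a block because the labels give the 2D and 3D libraries of a number as the same line (in doubt for m5 and m12), and an adjusted p threshold of 0.05. Deviations of the same line in the 2 cultures correlated at 0.317 to 0.703 in 5 lines, at 0.004 in m5 and at −0.110 in m12. Nothing repeats a line within a culture, so the p-values of the paired fits are set against the spread among lines of the 3D minus 2D difference. Count tests on the recovered reads used edgeR 4.0.16 (quasi-likelihood) and DESeq2 1.42.0; other alternatives were pseudocounts of 0.1 and 5, other filters, TMM, quantile normalization, no block, and leaving out lines. Ratios were tested with an exact sign-flip test. The fits were tested on simulated data. Promoter windows and exon lengths came from the GENCODE annotation of GRCm39. All 10 genes were named, with wider pathway or target genes that passed and up to 3 with the smallest p in each direction. The genes and lists were chosen with earlier results of these data known.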

Additional observations from a re-analysis of the deposited data

Results flagged for a closer look

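Yap1 stood apart in 2 libraries by Dixon's test for a sample far from the others of its group. In 3D m5 it was at 3989 CPM, and the nearest 3D library, m28, at 256 CPM. In 2D m28 it was at 351 CPM, and the nearest 2D library, m5, at 246 CPM. The test was run on 48 groups of 7 libraries (24 genes in each culture), and chance flags about 1 in 20 groups.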

How the results depend on the processing

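The count of Hippo core genes that passed was 3 with pseudocounts of 0.1 and 5, a mean of at least 10 CPM, TMM, quantile normalization and edgeR, 2 with no filter and without m5 and m12, 1 with no replicate block (all other calls but Wwc2 lost), 5 with DESeq2, 1 in the 5 crocidolite p53+/- lines, and 2 to 4 when 1 line was left out. Wwc2 passed in each of these settings. Lats2 was lost with no replicate block and in the 5 crocidolite lines (adjusted p = 0.0680), Tead1 also with no filter (adjusted p = 0.0641). Over all genes, 63 passed with no filter, 139 with no replicate block, 110 with edgeR, 1886 with DESeq2, 14 in the 5 crocidolite lines, and 22 to 771 when 1 line was left out. The wider list gave 1 with no filter, 1 with no replicate block, 11 with DESeq2, 4 without m5 and m12, 0 in the 5 crocidolite lines and 0 to 5 leaving out 1 line. The targets gave 0 with no filter, 2 with no replicate block, 1 with edgeR, 12 with DESeq2, 7 without m5 and m12, 0 in the 5 crocidolite lines and 0 to 7 leaving out 1 line. The split of higher to lower calls was 245 to 138, and 182 to 171 with TMM and 180 to 170 with quantile normalization. Directions turned for Stk3 (0.01 without m5 and m12; −0.17 to 0.03 leaving out 1 line, highest without m12), Yap1 (−0.20; −0.27 to 0.50, lowest without m5), Wwc2 to Wwc1 (0.49; −0.70 to 0.35, highest without m12) and Wwtr1 to Yap1 (0.05; −0.83 to 0.02, highest without m5). The cause was not tested, except that fewer lines or more genes tested enter some settings. Each of the 10 genes had at least 49 reads in every library, the lowest being Wwc1 in 3D m28. The part of depth in the calls was not tested.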
